A study of Mus musculus with 6 samples.

Results

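The genes described here code for voltage-gated sodium channels (Scn), voltage-gated calcium channels (Cacn), HCN pacemaker channels (Hcn) and TRPC, TRPM and TRPV cation channels. They were taken by symbol and biotype from the gene table, with no use of their values. The rule found 67 of the 22046 protein-coding genes and of the 54532 genes listed in all. Of these, 65 code for channel subunits, and 2 are no channels although their symbols match: Trpc4ap, a TRPC4-associated adaptor of a ubiquitin ligase, and Trpc5os, which lies opposite Trpc5. Expression was measured by RNA sequencing in N2a (Neuro2A) cells, a mouse neuroblastoma line whose strain the labels give as C57BL/6. The control siRNA (si-NC) had been given in 3 libraries and si-circRtn4 in the other 3, the latter an siRNA across the junction of the circular RNA circRtn4. Both groups had the same parent line, medium and transfection. The labels name only the growth medium, MEM with serum, whereas the study's methods differentiated transfected N2a cells with retinoic acid, so which state was sequenced is not known. N2a is 1 tumour line, and the labels do not say whether replicates were separate cultures, so p-values measure only the spread between these libraries, which may be technical.

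Voltage-gated sodium channels carry the upstroke of the action potential, and each has a pore-forming alpha subunit with beta subunits beside it. Voltage-gated calcium channels are built around an alpha-1 subunit: L type channels open at strong depolarization, P/Q, N and R type channels serve transmitter release, and T type channels open near rest and help cells fire in bursts. HCN channels open on hyperpolarization and carry the pacemaker current, and TRP channels are cation channels opened by lipids, temperature, oxidative stress or calcium.

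One member, the T type calcium channel gene Cacna1i, was lower in all 3 si-circRtn4 libraries and passed the test, at 59.9% of its si-NC mean. No member was higher at the same threshold. Of the 67 genes, 25 averaged at least 1 FPKM (fragments scaled to gene length and library depth) and were tested with limma on log2(FPKM + 1), 24 of them channel subunits. The test was fitted on all 12749 genes that passed this limit, with Benjamini-Hochberg adjustment over them and a threshold of 0.05. In that fit 4.82% of all genes were lower and 4.36% were higher, so 1 lower and 0 higher of 25 channel genes were near the share of all genes. At an unadjusted p under 0.05, 5 channel genes were lower (Cacna1i, Scn3b, Hcn3, Scn9a and Cacna1g) and 0 were higher, against 12.8% and 13.1% of all genes. The median log2 fold change of the 25 genes was -0.082, against 0.002 over all genes tested, and 14 of them (56.0%, against 49.6% of all genes) lay below 0. In 6 genes every si-circRtn4 library was below every si-NC library, and in 5 genes every one was above, where 15.5% and 16.2% of all genes were so ordered. Fold changes on this scale understate the change of genes with low FPKM.

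**Figure D1:**
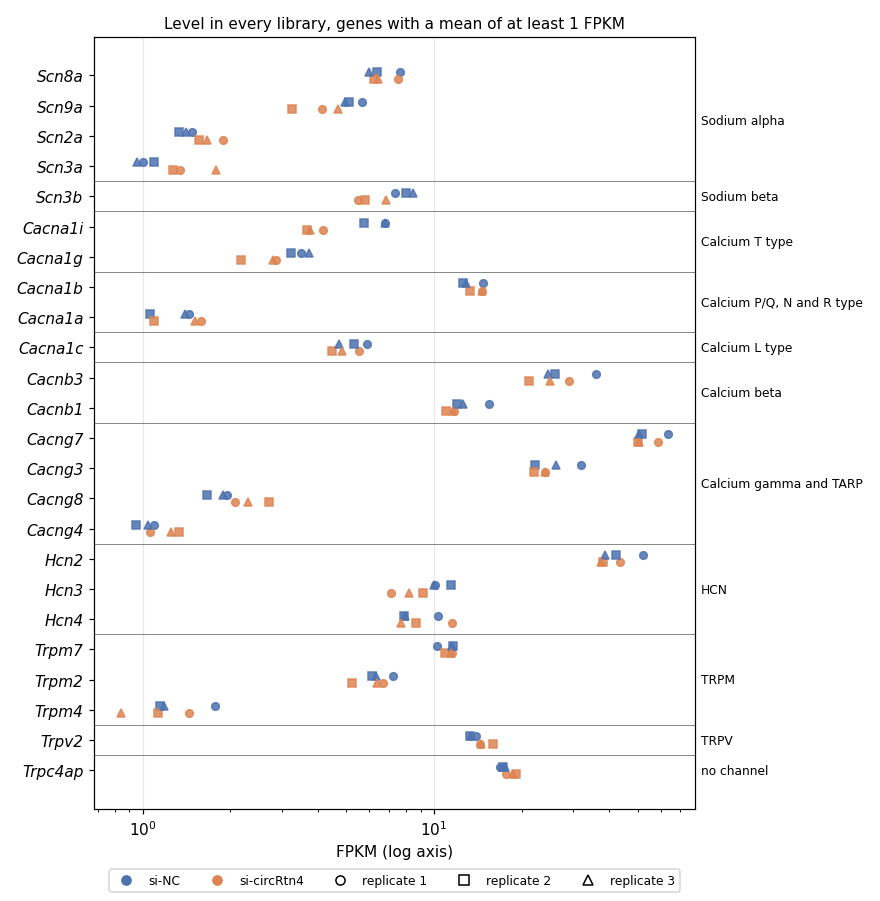
Level of 24 genes that averaged at least 1 FPKM, in FPKM on a log axis, with 1 point for each library, blue for si-NC and orange for si-circRtn4, and the replicate number as the shape. Cacng7 and Hcn2 had the highest levels, and the groups of Cacna1i stood apart with si-circRtn4 below si-NC.

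Reads on genes were recovered from FPKM and gene length and numbered 13541198 to 15122063 per library. These reads were tested with limma-voom for the 14484 genes that averaged at least 10 reads, which took in 31 channel genes. That test called 5 channel genes: Cacna1i and Scn3b were lower, and 3 sodium channel genes, Scn3a and Scn1a among them, were higher. It called 5.59% of all genes lower and 7.05% higher. Libraries with the same replicate number deviated together, with correlations of 0.331, 0.19 and 0.226 after subtraction of group means. They were taken as pairs for that reason, and the labels do not say what a number shares. The pairing, and every result given with pairs, therefore rests on these same data. With this block limma called 3 channel genes lower (Cacna1i, Scn3b and Hcn3) and 0 higher, against 9.75% and 9.29% of all genes. Limma-voom with the same block called 9 channel genes, 5 lower and 4 higher, against 13.0% and 16.8% of all genes. Their values are given below by family.

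Rtn4, the gene that circRtn4 is made from, had 61.0, 66.8 and 69.8 FPKM in si-NC and 50.1, 56.7 and 62.7 FPKM in si-circRtn4 (log2 fold change -0.22, adjusted p = 0.216 in limma). It was lower in each of the 3 pairs, and with pairs it passed, with an adjusted p of 0.0447 in limma and of 0.0107 in limma-voom. Linear and circular reads are counted together there, so the knockdown of the circle itself cannot be read from this value. A single small RNA gene, Gm23935, took 20.09% to 20.7% of the FPKM sum in si-NC and 13.45% to 18.81% in si-circRtn4. The library si-NC replicate 1 held the highest si-NC value in 18 of the 25 channel genes, against 37.9% of all genes tested. It was the highest of all 6 libraries in 12 of them, against 19.6% of all genes. In bulk RNA, fewer cells of a type and less RNA per cell cannot be told apart.

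All libraries were of the N2a line, and marker genes named after several cell types were read in them. A marker read here does not show that its cell type was present. Of 9 sympathetic neuroblastoma markers 8 were tested and 4 were lower (Phox2a, Gata2, Th and Dbh), and their summed level was 503 to 556 FPKM in si-NC and 397 to 461 FPKM in si-circRtn4. The 3 neuron markers summed to 468 to 628 FPKM and 332 to 553 FPKM, with none past the threshold. The 4 skeletal muscle markers summed to 7.57 to 8.98 FPKM and 5.11 to 5.58 FPKM, mostly from Mylpf (means of 6.98 and 4.74 FPKM). Only Mylpf was tested of these 4, and it was lower. Sensory neuron markers (4 genes, Calca at 0) summed to 22.9 to 25.7 FPKM and 28.7 to 30.1 FPKM. Astrocyte, microglia, fibroblast and heart muscle markers each summed to less than 1 FPKM in every library (Aqp4 at 0), and oligodendrocyte markers to 3.61 to 5.29 FPKM. The part of these markers in the channel results was not tested.

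The study proposes that circRtn4 acts through miR-24-3p, with CHD5 as a target, from luciferase reporters, RNA pull-down and a mutant circle. The 3′ UTRs of the channel genes were therefore searched for the 7-base sites of this miRNA and of the siRNA guide. Such a search does not test those experiments. The small RNAs are shown because their seeds, bases 2 to 8 in capitals, define both sites. The miRNA is as in RefSeq (GRCm38.p6), the siRNA strand is as the study lists it, and the guide is its reverse complement, which was taken as the active strand.
miR-24-3p: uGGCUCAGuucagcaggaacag
si-circRtn4 as listed: cttcagatgagaccctttt
si-circRtn4 guide: aAAAGGGTctcatctgaag
The longest annotated 3′ UTR (GENCODE M21, sense strand only) held the miR-24-3p site CTGAGCC in 6 of the 25 tested channel genes (24.0%), against 19.6% of 10694 genes tested with a 3′ UTR. It held the guide site ACCCTTT in 2 of 25 (8.0%), against 12.5%. The median 3′ UTR was 1393 bases in the channel genes and 1169 bases in all genes. The tested channel subunit genes with a site are shown with 30 bases around it in the RNA sense, in GRCm38, and the site in capitals.
Cacna1b, miR-24-3p site, chr2:24606200-24606206, minus strand: ggagggactttCTGAGCCtcgtggagagtg
Cacna1c, miR-24-3p site, chr6:118593574-118593580, minus strand: acatgttctgtCTGAGCCtggccgtctcta
Cacnb1, miR-24-3p site, chr11:98002149-98002155, minus strand: gccctctgcatCTGAGCCccacatctccgt
Cacng4, miR-24-3p site, chr11:107732498-107732504, minus strand: caggctcaggtCTGAGCCcaccttcctacc
Trpm4, miR-24-3p site, chr7:45303217-45303223, minus strand: gacaggggcgtCTGAGCCcctgccgctttc
Cacna1c, guide site, chr6:118588817-118588823, minus strand: ctcttaagcccACCCTTTtcctccaactgt
Cacng7, guide site, chr7:3367091-3367097, plus strand: tcaacggctccACCCTTTttccaatctctc
The sixth gene with a miR-24-3p site was Trpc4ap, which holds 2. None of these 7 genes passed the threshold in limma or limma-voom. The median log2 fold change was -0.003 with and -0.094 without a miR-24-3p site among the channel genes, and 0.004 and -0.001 among all genes. For the guide site it was -0.067 and -0.094 among the channel genes, and -0.049 and 0.007 among all genes. The 3′ UTR of Cacna1i holds neither 7-base sequence. A match is a sequence description, not a measured binding site.

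Of the T type calcium channel genes Cacna1i fell, and the summed level of the family did not overlap between the groups. Cacna1i (ENSMUSG00000022416, chromosome 15 from 80287238 to 80398279, plus strand) codes for the alpha-1I subunit, which gives T type currents with slow kinetics. It was at 6.77, 5.73 and 6.81 FPKM in si-NC and at 4.16, 3.67 and 3.74 FPKM in si-circRtn4. Every si-circRtn4 library was below every si-NC library, with means of 6.44 ± 0.612 (SD, n = 3) and 3.86 ± 0.265 FPKM (SD, n = 3). The log2 fold change was -0.61 (standard error 0.093, 95% interval -0.83 to -0.40, adjusted p = 0.0102 in limma) and -0.72 in limma-voom (adjusted p = 0.00128). It passed under each of the 13 alternatives tried, with adjusted p between 0.00128 and 0.0436. The share of Cacna1i in the summed FPKM of all 10 alpha-1 genes was 20.3% to 22.7% in si-NC and 13.4% to 14.7% in si-circRtn4.

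Cacna1g, the alpha-1G subunit, is the second T type gene of these cells. Its levels were 3.48, 3.24 and 3.73 FPKM in si-NC and 2.87, 2.17 and 2.80 FPKM in si-circRtn4, with no overlap of the groups. The log2 fold change of -0.32 (standard error 0.11, 95% interval -0.58 to -0.06) had an adjusted p of 0.124 in limma and of 0.0551 in limma-voom, and of 0.00124 in limma-voom with pairs. Cacna1h, the alpha-1H subunit, was low, at 0.618, 0.348 and 0.432 FPKM against 0.439, 0.355 and 0.423 FPKM. Its groups overlapped (log2 fold change -0.15, 95% interval -0.70 to 0.40, adjusted p = 0.758 in limma-voom). Summed over the 3 genes, T type transcripts were at 10.9, 9.32 and 11 FPKM in si-NC and at 7.47, 6.20 and 6.96 FPKM in si-circRtn4. The sums did not overlap, and Cacna1i made up 61.5% to 62.3% of them in si-NC and 53.7% to 59.3% in si-circRtn4.

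**Figure D2:**
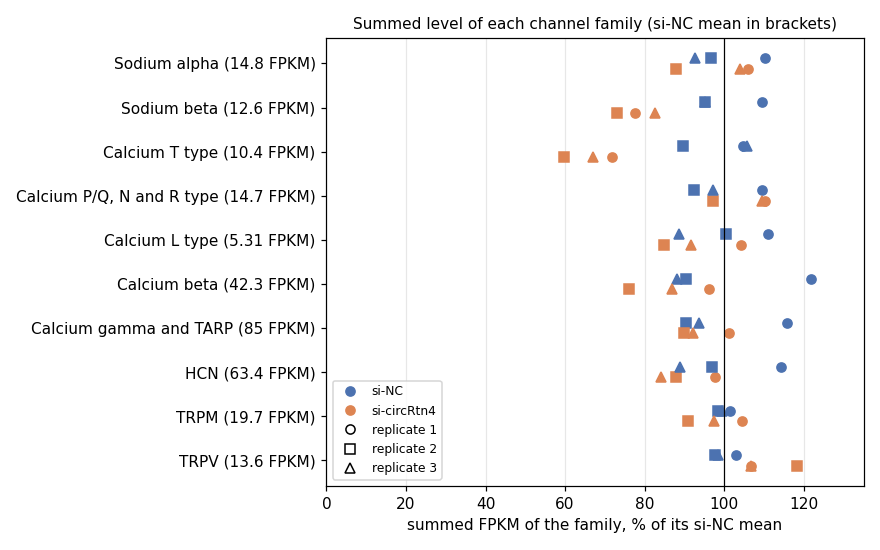
Summed FPKM of each channel family in each library, in percent of the family's si-NC mean (given in FPKM beside its name), with blue for si-NC, orange for si-circRtn4 and the replicate number as the shape. The 3 si-circRtn4 libraries lay below the 3 si-NC libraries for the T type calcium channels and the sodium channel beta subunits and above them for TRPV, whose sum is nearly all Trpv2; families with a sum under 1 FPKM are not drawn.

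The other calcium channel pores did not pass the test. Cacna1b, the N type pore, was the highest alpha-1 gene at 14.7, 12.6 and 12.9 FPKM in si-NC and 14.6, 13.3 and 14.6 FPKM in si-circRtn4. The groups overlapped, and the 95% interval of the log2 fold change ran from -0.12 to 0.27. Cacna1a, the P/Q type pore, was at 1.44, 1.06 and 1.40 FPKM against 1.58, 1.09 and 1.51 FPKM, also with overlap (adjusted p = 0.848 in limma). The L type pore of these cells was Cacna1c, at 5.88, 5.33 and 4.70 FPKM against 5.53, 4.48 and 4.85 FPKM. Its log2 fold change was -0.08 (95% interval -0.33 to 0.16, adjusted p = 0.682). The other L type genes, Cacna1d, Cacna1f and Cacna1s, and the R type gene Cacna1e were each at no more than 0.0212 FPKM in any library. Of these, Cacna1f, the L type gene next in level, was at 0.00729, 0 and 0 FPKM against 0, 0.0212 and 0 FPKM.

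The accessory calcium channel subunits held the highest level of all members, and none was called. Beta subunits bring the pore to the membrane. Cacnb3 was at 36.0, 26.1 and 24.6 FPKM in si-NC and 29.0, 21.2 and 25.1 FPKM in si-circRtn4, and Cacnb1 at 15.4, 12 and 12.6 FPKM against 11.7, 11 and 11.6 FPKM. Only Cacnb1 of these 2 had groups that did not overlap (log2 fold change -0.20, 95% interval -0.43 to 0.03, adjusted p = 0.254 in limma). For both genes si-NC replicate 1 was the highest library. Of the gamma family, Cacng7 had the highest level of all members, at 63.5, 51.9 and 50.4 FPKM against 58.7, 50.1 and 50.6 FPKM. Its log2 fold change of -0.05 (95% interval -0.31 to 0.21) lay above 0, at 0.039, when libraries were rescaled to the same FPKM sum. Cacng3, which codes for a TARP that escorts AMPA receptors, was at 31.9, 22.2 and 26.3 FPKM against 24.0, 22.1 and 24.0 FPKM, with overlap. Cacng8, another TARP gene, was at 1.66 to 1.95 FPKM in si-NC and 2.07 to 2.71 FPKM in si-circRtn4, without overlap and short of the threshold (log2 fold change 0.24, adjusted p = 0.245). Cacng4 was at 1.03 ± 0.0721 and 1.21 ± 0.138 FPKM (SD, n = 3 each), with overlap. The alpha-2-delta family, the extracellular partners of the pore, was nearly silent. Its highest gene, Cacna2d2, was at 0.0917, 0.105 and 0.027 FPKM in si-NC and 0.177, 0.0889 and 0.147 FPKM in si-circRtn4 (adjusted p = 0.238 in limma-voom), and Cacna2d4 was at 0, 0.0366 and 0 FPKM against 0.00742, 0.00678 and 0 FPKM.

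Among the sodium channel alpha subunits none passed in limma. In limma-voom 3 of the 7 tested rose, where 7.05% of all genes were called higher. No test was run on the family as a set, and its sum stayed nearly equal. The 10 alpha genes together were at 14.8 ± 1.38 FPKM in si-NC and 14.7 ± 1.45 FPKM in si-circRtn4 (SD, n = 3 each). Scn8a, the main channel of the axon initial segment in mature neurons, was the highest, at 7.64, 6.38 and 5.96 FPKM against 7.50, 6.21 and 6.40 FPKM. Its groups overlapped (log2 fold change 0.01, 95% interval -0.24 to 0.26, adjusted p = 0.967 in limma). Scn9a, best known from sympathetic and pain-sensing neurons, was at 5.68, 5.12 and 4.95 FPKM in si-NC and 4.14, 3.25 and 4.67 FPKM in si-circRtn4. Every si-circRtn4 library was below every si-NC library, with a log2 fold change of -0.32 (95% interval -0.60 to -0.04). The adjusted p was 0.142 in limma, 0.0694 in limma-voom and 0.00104 in limma-voom with pairs. The share of Scn9a in the alpha sum was 34.7% to 36.1% in si-NC and 25.0% to 30.4% in si-circRtn4. Scn9a has an antisense neighbour, Gm13629, over 1.4% of its exon bases, at a mean of 0.274 and 0.300 FPKM.

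Scn3a and Scn2a, which are prominent in embryonic and early brain, lay higher in si-circRtn4. Scn3a was at 1, 1.09 and 0.952 FPKM in si-NC and 1.34, 1.27 and 1.79 FPKM in si-circRtn4, without overlap. It rose by the reads (log2 fold change 0.54, standard error 0.16, adjusted p = 0.0391 in limma-voom), whereas limma on log2(FPKM + 1) gave 0.29 with an adjusted p of 0.236. In limma-voom the call was lost without 5 of the 6 libraries, with adjusted p from 0.0602 without si-circRtn4 replicate 1 to 0.122 without si-NC replicate 3. It held without si-circRtn4 replicate 2 (0.0454). Scn2a was at 1.47, 1.33 and 1.41 FPKM against 1.88, 1.56 and 1.66 FPKM, also without overlap. Its log2 fold change of 0.29 in limma-voom had an adjusted p of 0.175, and of 0.0337 with pairs.

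Scn1a, a channel of inhibitory neurons, was at 6, 11 and 11 reads in si-NC and 22, 26 and 25 reads in si-circRtn4, or 0.0582 ± 0.0196 and 0.148 ± 0.00801 FPKM (SD, n = 3 each). Its groups did not overlap, and it rose in limma-voom (log2 fold change 1.38, standard error 0.36, adjusted p = 0.0269). The call held without si-NC replicate 3 (0.0479) and was lost without each of the other 5 libraries, with adjusted p from 0.0545 to 0.0909. In limma with no filter on low values it did not pass (adjusted p = 0.147). Scn1a carries a guide site, followed by A, in its 3′ UTR at chr2:66271986-66271992 on the minus strand, shown because it is the one gene called with a site of either small RNA.
Scn1a, guide site: tgaccaaaagaACCCTTTataaatccccgc
Scn3a, Scn2a, Scn1a, Scn9a and Scn7a lie in this order on chromosome 2, from 65457118 at the start of Scn3a to 66634962 at the end of Scn9a and Scn7a beyond it, and they are close in sequence. How the authors' counting treated reads that fit several of them is not stated.

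Of the sodium channel beta subunits, which modulate gating and bind cell adhesion partners, Scn3b was the most abundant. Scn3b was at 7.35, 8.03 and 8.47 FPKM in si-NC and 5.50, 5.79 and 6.84 FPKM in si-circRtn4. Every si-circRtn4 library was below every si-NC library, at 76.0% of the si-NC mean. The log2 fold change was -0.35 (standard error 0.097, 95% interval -0.57 to -0.12), with an adjusted p of 0.0654 in limma and of 0.0211 with pairs. In limma-voom it fell by the test (-0.37, adjusted p = 0.0378, and 0.000862 with pairs). That call held without si-NC replicate 1 (0.0321) and si-circRtn4 replicate 3 (0.0333) and was lost without each of the other 4 libraries, with adjusted p from 0.111 to 0.128.

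**Figure D3:**
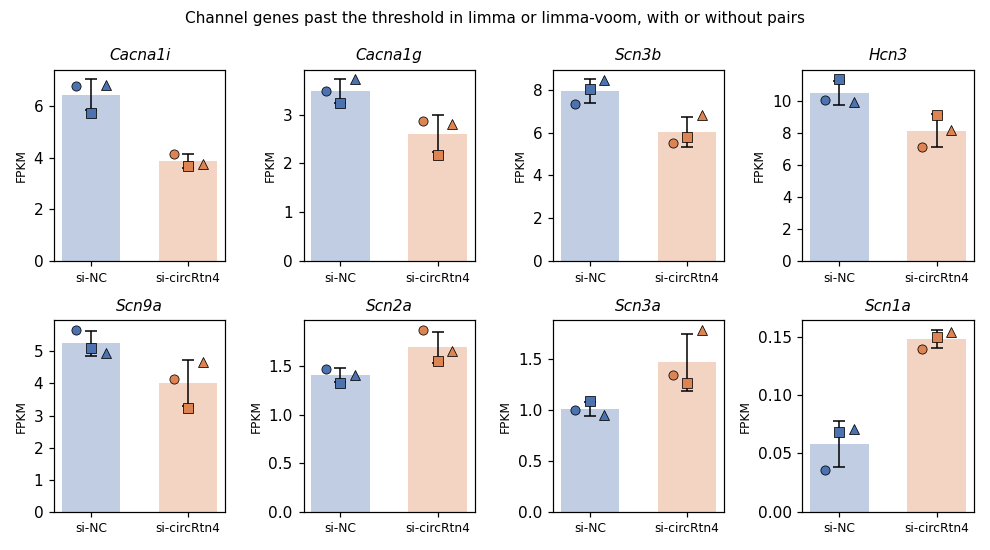
FPKM of 8 channel genes past the threshold in limma or limma-voom, with or without pairs, in each library (points, with the replicate number as the shape), with the group mean as a bar from 0 and the SD over 3 libraries as an error bar. Cacna1i, Cacna1g, Scn3b, Hcn3 and Scn9a were lower in si-circRtn4, and Scn2a, Scn3a and Scn1a were higher, each without overlap of the groups. The genes were drawn because they passed, so the lack of overlap adds no support. Of all genes tested in limma, 15.5% lay lower and 16.2% higher without overlap. With all 6 libraries, Cacna1g, Scn9a and Scn2a passed only in limma-voom with pairs, a fit added after seeing the data.

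The HCN genes were expressed at high levels, with Hcn2 in front. Hcn2, a pacemaker subunit of brain and heart, was at 52.1, 42.1 and 38.5 FPKM in si-NC and 43.4, 37.9 and 37.4 FPKM in si-circRtn4. The groups overlapped, and the log2 fold change was -0.15 (95% interval -0.43 to 0.13, adjusted p = 0.487 in limma). Hcn3 was at 10.1, 11.4 and 9.96 FPKM against 7.12, 9.14 and 8.21 FPKM, with every si-circRtn4 library below every si-NC library. Its log2 fold change of -0.33 (standard error 0.10, 95% interval -0.56 to -0.09) had an adjusted p of 0.087 in limma, 0.0754 in limma-voom and 0.0268 in limma with pairs. Over 17.1% of its exon bases Hcn3 is overlapped by Pklr on the other strand, and whether reads were counted by strand is not stated. Pklr itself was at 0.613 ± 0.216 and 0.393 ± 0.179 FPKM (SD, n = 3 each). Hcn4, the pacemaker subunit of the sinoatrial node, was at 10.3, 7.90 and 7.95 FPKM against 11.5, 8.67 and 7.73 FPKM, with overlap (95% interval of the log2 fold change -0.28 to 0.43).

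The TRP genes were led by Trpv2, Trpm7 and Trpm2, and none was called. Trpm7, a channel fused to a kinase that serves magnesium balance, was at 10.2, 11.6 and 11.5 FPKM in si-NC and 11.5, 10.9 and 11.4 FPKM in si-circRtn4. Its 95% interval of the log2 fold change, -0.15 to 0.20, was among the narrowest of the members. Trpm2, which is opened by oxidative stress through ADP-ribose, was at 7.25, 6.12 and 6.31 FPKM against 6.69, 5.22 and 6.39 FPKM, with overlap. Trpm4, a calcium-activated sodium-permeable channel, was at 1.37 ± 0.349 and 1.14 ± 0.298 FPKM (SD, n = 3 each), also with overlap. Trpv2 was at 13.9, 13.3 and 13.4 FPKM against 14.4, 16.0 and 14.5 FPKM. All si-circRtn4 libraries were above all si-NC libraries, short of the threshold (log2 fold change 0.14, 95% interval -0.03 to 0.31, adjusted p = 0.284 in limma). Trpv3, next in its family, was at 0.0114, 0.0357 and 0 FPKM against 0.0241, 0.0110 and 0.0472 FPKM.

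The TRPC channels, which open after receptor signalling through phospholipase C, were all under 1 FPKM and had too few reads for either test. Trpc7 had 10, 11 and 13 reads in si-NC and 3, 1 and 3 reads in si-circRtn4, or 0.202 ± 0.0347 and 0.0414 ± 0.0215 FPKM (SD, n = 3 each). The groups did not overlap. In limma with no filter on low values its adjusted p was 0.0681. Trpc6 was at 0.0523, 0.164 and 0.155 FPKM against 0.125, 0.0380 and 0.109 FPKM, with overlap. Trpc4ap, the adaptor that the rule also takes, was at 16.9, 17.2 and 17.5 FPKM against 17.7, 19.1 and 18.7 FPKM (log2 fold change 0.10, adjusted p = 0.401 in limma), and Trpc5os was at 0.111, 0 and 0.12 FPKM against 0.0196, 0.0537 and 0.134 FPKM.

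**Figure D4:**
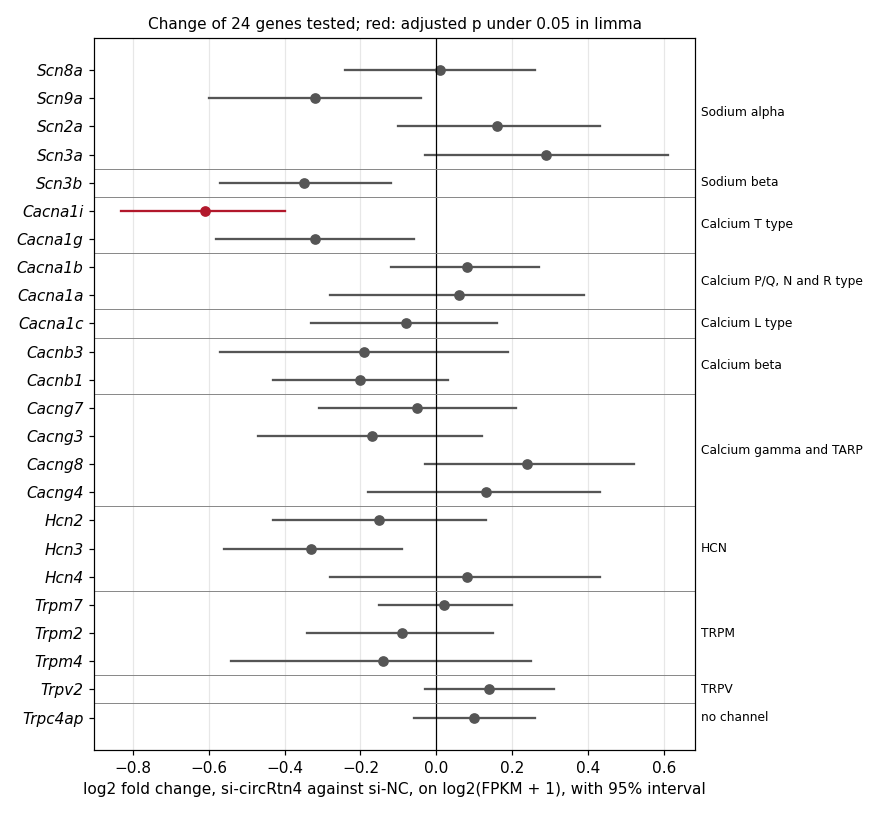
Log2 fold change of si-circRtn4 against si-NC on the log2(FPKM + 1) scale for 24 of the genes tested, with the 95% interval from limma as a line and genes past the adjusted p of 0.05 in red. Cacna1i alone is red, at -0.61, and 8 genes lie within 0.1 of 0.

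For the genes short of the threshold, the data set limits rather than show equality. The half-width of the 95% intervals ran from 0.16 to 0.43 on the log2 scale over the 25 genes. Of the 67 members, 42 were under 1 FPKM, and 36 had a mean under 10 reads. Among them, 20 had at most 3 reads in every library, and 12 of these had 0 reads in all 6, among them Scn10a, Scn2b, Scn4b, Cacna2d3, Cacng2, Trpc1, Trpc2, Trpc4, Trpv5 and Trpv6. A count of 0 allows up to 3 reads in a library, which for these genes is 0.0106 to 0.0746 FPKM and covers counting error only. Trpc2 shares 97.5% of its exon bases with Xntrpc on the same strand, so its reads may have been assigned elsewhere or dropped. Besides the genes described above, Scn4a and Trpm3 were tested in limma-voom only, with adjusted p of 0.903 and 0.612.

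Genes that work with these channels were counted from lists of 58 genes, of which 57 were in the table and 36 were tested. In limma 2 were lower and 2 were higher (5.56% each), near the 4.82% and 4.36% of all genes. Mrvi1, a partner of HCN channels, rose from 0.650, 0.742 and 0.795 FPKM to 3.02, 2.59 and 2.88 FPKM (log2 fold change 1.15, adjusted p = 0.00283). Nfasc, the cell adhesion molecule neurofascin, which sits with sodium channels at the axon initial segment, rose from 1.46, 1.26 and 1.38 FPKM to 2.74, 2.82 and 3.71 FPKM (log2 fold change 0.78, adjusted p = 0.0117). Unc79, a subunit of the sodium leak channel complex, fell from 7.90, 7.55 and 6.90 FPKM to 5.88, 5.58 and 5.79 FPKM. Its log2 fold change was -0.32 (adjusted p = 0.0425 in limma). Nalcn, the channel gene of that complex, was under 1 FPKM in every library and had too few reads for either test. Rrad, a small GTPase that inhibits L type channels, fell from 7.10, 6.73 and 7.88 FPKM to 4.95, 5.99 and 4.84 FPKM (log2 fold change -0.40, adjusted p = 0.0487). None of the 4 called genes had overlapping groups. They were picked because they passed on these same values, so the lack of overlap adds no support. Of all genes tested in limma, 15.5% lay lower and 16.2% higher without overlap. Mrvi1 and Nfasc also passed in limma-voom (adjusted p = 3.21e-05 and 0.00018), as did Unc79 (0.0237), whereas Rrad did not (0.102). Limma-voom called 6 of 41 partner genes, 2 lower (4.88%) and 4 higher (9.76%), against 5.59% and 7.05% of all genes. It added Stac, an adaptor of calcium channels, as lower (log2 fold change -0.78, adjusted p = 0.0157). It also added the ankyrins Ank2 and Ank3, which anchor channels to the membrane skeleton, as higher (log2 fold changes 0.32 and 0.40, adjusted p = 0.023 and 0.0112). With pairs limma called 9 partner genes, 6 lower (16.7%) and 3 higher (8.33%), against 9.75% and 9.29% of all genes, with Gem, Stac and Pkd2 among the added lower genes and Ank3 the added higher gene. In limma, leaving out any single library lost the calls of Unc79 and Rrad, and leaving out si-NC replicate 2 also lost that of Nfasc. Both rescalings of the libraries lost Unc79 and Rrad as well. By list in limma, 0 of 3 calmodulins, 0 of 6 store-operated entry genes and 0 of 2 TRP genes outside the rule passed. Passing were 1 of 9 calcium channel regulators, 1 of 4 initial segment genes (3 of 5 in limma-voom) and 1 of 3 HCN partners. In the sodium leak channel complex 1 of 2 tested genes passed, Unc79 but not Unc80. Of the other sodium or calcium channels, such as Asic and Tpcn genes, 0 of 7 tested passed, and of the 4 sodium channel binding FGFs none reached 1 FPKM.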

How the data were processed

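RNA was sequenced from 3 si-NC and 3 si-circRtn4 libraries of N2a cells, which were grouped and numbered by the sample labels. The deposited table gives each gene's FPKM as computed by the authors, its length and its coordinates. Bowtie 0.12.2 and the builds mm8 and mm9 are named by the submitters' processing notes, whereas GENCODE M21 held all 67 channel genes, 65 of them with identical start and end, so the coordinates are those of GRCm38. The counter, the annotation and the use of strand are not given in the sources used here. Another 6 columns belong to other samples and were left out.

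The product of FPKM and gene length was a whole number of steps in 100% of values (tolerance 0.01), and the number of steps was taken as the reads. Limma 3.58.1 (R 4.3.3, lmFit and eBayes with trend) was run on log2(FPKM + 1) for genes averaging at least 1 FPKM, and limma-voom on the recovered reads for genes averaging at least 10 reads. Tests were two-sided, with Benjamini-Hochberg adjustment over all genes tested. On simulated reads with 2-fold changes in 200 genes, the limma fit of si-circRtn4 against si-NC recovered 84.5% of the 194 changed genes among 12818 tested. Of its calls 7.9% were false. Every simulated gene had the same dispersion, 0.01, and no effect shared by replicate number, so these rates need not hold for the real libraries. Changes under 2-fold, such as that of Cacna1i, were not simulated. After subtraction of group means, libraries sharing a replicate number had correlations of 0.331, 0.19 and 0.226, and other pairs at most 0.009, so the numbers were taken as pairs in the fits with a block. Neither the labels nor the methods say what a number shares.

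Alternatives were another pseudocount, no filter, rescaling, quantile normalization, the recovered reads, the replicate block and each library left out. Named with values were the members averaging at least 1 FPKM, those past the threshold in limma-voom and the highest 2 of each family, and of the partner genes those called. Values in every library were given for those called and the highest 2 of each family. They were also given for Scn2a, Cacna1h and Hcn4, and Scn4a, Trpm3 and Nalcn were named, after their values were seen. A few genes are counted but not reported here by name. The members and lists were chosen with earlier results of these data known. Seed sites were searched with Python 3.11.15 (numpy 2.4.6, pandas 2.3.3), and figures were drawn with matplotlib 3.10.9.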

Additional observations from a re-analysis of the deposited data

How the results depend on the processing

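Cacna1i was lower past the threshold under all 13 alternatives to the limma fit, with log2 fold changes from -0.722 to -0.535. The count of channel genes lower (1 in the limma fit) was 2 in limma-voom on recovered reads and 3 with the replicate block, and the count of those higher (0) was 3 in limma-voom. Leaving out libraries in limma-voom and pairing there were added after seeing the data: its count of 5 was 9 with the replicate block and 1 to 3 with 1 library left out, with 1 left, Cacna1i, without si-NC replicate 2. For the partner genes, all alternatives were also added after seeing the data. Their count of 4 was 1 with no filter on low values, 2 when rescaled without Gm23935, 9 with the replicate block and 1 to 3 with 1 library left out. The block, which takes the replicate numbers as pairs, changed no call of a channel gene in limma other than those of Scn3b and Hcn3. The median log2 fold change of the 25 genes stayed between -0.151 and -0.004. Of 29 gene results, 24 kept their direction under every alternative. The direction turned for Cacna1a without si-NC replicate 2 (-0.02, range with 1 library left out to 0.151), for Hcn4 without si-circRtn4 replicate 1 (-0.07, range to 0.19) and for Trpm7 without si-NC replicate 1 (-0.031, range to 0.053). For Cacng7 it turned when rescaled to the same FPKM sum (0.039) and without si-NC replicate 1 (0.05, range from -0.125). For Scn8a it turned without si-NC replicate 2 (-0.013), si-NC replicate 3 (-0.056) and si-circRtn4 replicate 1 (-0.063), with a range to 0.1. Where a call or direction changed, the cause was not tested. Depth limits the 36 genes with a mean under 10 reads, which neither test could reach.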
